A study of Mus musculus with 14 samples.

Results

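The 10 genes described here encode inhibitors of mitogen-activated protein kinase (MAPK) signalling: the dual-specificity phosphatases Dusp1, Dusp2, Dusp4, Dusp5, Dusp6 and Dusp7, the Sprouty genes Spry1 and Spry2, and the Spred genes Spred1 and Spred2. They were chosen by gene symbol from the 22155 genes of the count table, with the differences between sgSgf29 and sgCtrl libraries in view, so their own differences between these groups are a description and carry no test. All 10 are in the table, 9 passed the filter on low counts, and 1, Dusp4, did not. Messenger RNA was sequenced in 6 libraries of MLL-AF9-Cas9+ cells, mouse leukemia cells that carry the MLL-AF9 fusion oncogene and express Cas9. In 3 libraries the cells were transduced with sgSgf29, a guide RNA against Sgf29, and in 3 with sgCtrl, a guide against nonessential sequence. Both guides were delivered by lentivirus in the ipUSEPR vector, and both groups were kept in puromycin at 2 µg/ml for 3 days before RNA was taken. Sgf29 encodes a subunit of the SAGA and ATAC histone acetyltransferase complexes that reads methylated histone H3. The labels do not say whether the numbers 1 to 3 stand for separate cultures or for different guide sequences, so p-values measure the spread between these libraries, which may be technical.

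In the MAPK pathway, receptor signals pass through RAS and RAF to MEK and ERK, and parallel cascades end in p38 and JNK. Active ERK, p38 and JNK carry phosphate on a threonine and a tyrosine, and the DUSP enzymes remove both. Several DUSP, Spry and Spred genes are themselves induced by ERK, and so form negative feedback loops: Sprouty proteins act between receptor and RAF, and Spred proteins bring the RAS inactivator neurofibromin to the membrane. In blood cells these inhibitors are known to limit growth factor and cytokine signals, and Dusp1 and Dusp2 were described as induced genes of activated immune cells.

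Sgf29 itself measured 12.6, 13.4 and 17.4 CPM (read counts relative to library size, after TMM scaling, which corrects library sizes for composition) in the sgSgf29 libraries and 36.2, 40.4 and 40.4 CPM in the sgCtrl libraries, a log2 fold change of -1.43 (SE 0.11, adjusted p = 2.88e-10, edgeR's quasi-likelihood test). Counts assigned to genes came to 16085601 to 20185751 per sgSgf29 library and 16003990 to 21786618 per sgCtrl library. All 10 genes of a leukemia identity list were detected, 4 of them higher and 5 lower past the threshold. On the log2 scale the lower genes were Mpo (-1.83), Hoxa9 (-1.37), Kit (-0.74), Myb (-0.69) and Hoxa10 (-0.50). The higher genes were Itgam (1.96), Ptprc (0.65), Meis1 (0.46) and Spi1 (0.32), and Cebpa did not pass. Of 20 markers of mature myeloid cells, 18 were tested, 15 were higher and 2 lower in the sgSgf29 cells, and their summed level was 26100 to 27680 CPM in the sgSgf29 libraries and 8732 to 9501 CPM in the sgCtrl libraries; the macrophage marker Mrc1 had 0 counts in all 6. The part of this shift in the values below was not tested, and in bulk RNA a smaller share of cells of 1 kind and less RNA per cell cannot be told apart. Over all genes tested, the median difference on the log2 scale was 0.24 when library size alone set the scale, against 0.01 with TMM.

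The 10 genes did not move as 1 block. Dusp1 and Dusp5 were higher in the sgSgf29 cells by 3.07-fold and 3.79-fold, Dusp6 and Dusp7 were slightly higher, Spry2, Spred1 and Spred2 were lower, and Dusp2 was lower by 4.95-fold. Past an adjusted p of 0.05 in edgeR's fit, 4 of the 9 genes with enough counts lay higher and 4 lower, where 35.4% and 34.4% of all 11169 genes tested did. As the 10 genes were chosen with this contrast in view, passing the threshold describes the fit, here and below, and is no test of them. The libraries of the 2 groups did not overlap for 4 of the 10 genes that were higher and for 5 that were lower, beside 37% and 35.1% of all genes tested. By 2-fold or more, 2 genes were higher and 1 was lower, beside 10.2% and 4.7% of all genes tested. The median log2 fold change of the 9 genes was -0.18 and the median of its absolute size was 0.49; over all genes tested these were 0.01 and 0.42. The median of the 9 is the value of Spry1; it was 0.052 with library size scaling, and ran from -0.29 (without sgCtrl library 2) to -0.032 (without sgSgf29 library 3) with 1 library left out, with -0.090 without sgCtrl library 3, so its sign is not settled.

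**Figure D1:**
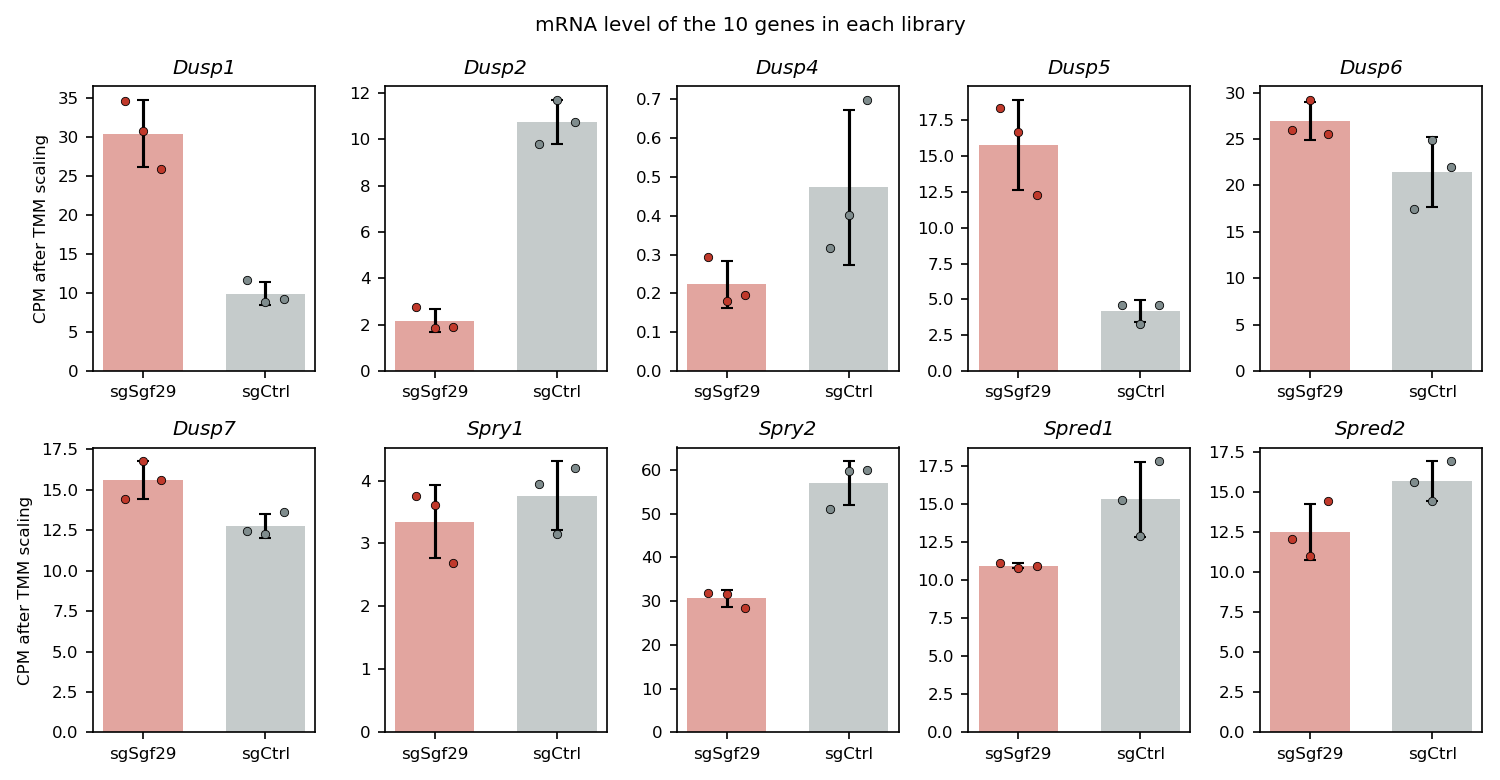
Level of each of the 10 genes in CPM after TMM scaling, with 1 point per library, bars at the group mean and error bars of 1 SD (n = 3 per group); each panel has its own vertical axis, which starts at 0. Points of the 2 groups are widely apart for Dusp1, Dusp5, Dusp2 and Spry2 and interleave for Spry1.

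Dusp1, Dusp2, Dusp4 and Dusp5 are the inducible nuclear phosphatases. Dusp1 (chr17:26505591-26508472 of GRCm38.p6, minus strand), which acts on p38 and JNK as well as ERK, measured 34.7, 30.8 and 26.0 CPM in the sgSgf29 libraries and 11.7, 8.84 and 9.29 CPM in the sgCtrl libraries. Each sgSgf29 library was far above every sgCtrl library. The means were 30.5 ± 4.36 and 9.94 ± 1.53 CPM (SD, n = 3 each), and the log2 fold change was 1.62 (SE 0.12). In the GENCODE annotation a longer Dusp1 model reaches beyond this span. It overlaps 4 annotated genes, AC122252.4 and AC122252.1 on the same strand and Gm8225 and Ergic1 on the opposite strand. Ergic1 was slightly lower, at 74.3 CPM in sgSgf29 and 88.2 CPM in sgCtrl cells (log2 fold change -0.25, adjusted p = 0.00205, edgeR's quasi-likelihood test).

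Dusp5 (chr19:53529145-53541809, plus strand), which acts on ERK alone and holds it in the nucleus, measured 18.4, 16.7 and 12.3 CPM in the sgSgf29 libraries and 4.64, 3.28 and 4.60 CPM in the sgCtrl libraries. The groups were again apart, and within sgSgf29 the third library was the lowest for both Dusp5 and Dusp1. The log2 fold change was 1.91 (SE 0.17), from means of 15.8 ± 3.14 and 4.17 ± 0.772 CPM.

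Dusp2 (chr2:127336159-127338377, plus strand), a phosphatase of ERK and p38 found mainly in blood cells, went the other way. Its counts were 47, 41 and 39 in the sgSgf29 libraries and 154, 175 and 215 in the sgCtrl libraries, or 2.75, 1.85 and 1.91 CPM against 9.79, 11.7 and 10.7 CPM. No sgSgf29 library came near the sgCtrl values, and this was the largest change among the 9 genes fitted, at a log2 fold change of -2.32 (SE 0.18). Dusp4 (chr8:34807610-34819894, plus strand), a nuclear phosphatase of ERK and JNK, was hardly present in either group. It had 5, 4 and 4 counts in the sgSgf29 libraries and 5, 6 and 14 in the sgCtrl libraries, and it was below the filter, so that no fold change was fitted. In CPM the sgSgf29 values of 0.293, 0.180 and 0.195 lay just under the lowest sgCtrl value of 0.318, a gap that rests on counts that are equal in the first library of each group.

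The contrast between Dusp1 and Dusp2 can be read inside each library, where no scaling between libraries enters. For each Dusp2 count there were 12.6, 16.7 and 13.6 Dusp1 counts in the sgSgf29 libraries, against 1.19, 0.754 and 0.865 in the sgCtrl libraries. The ratio of Dusp5 to Dusp2 counts was 6.68, 9.05 and 6.46 in sgSgf29 and 0.474, 0.280 and 0.428 in sgCtrl libraries. Dusp2 thus had about as many counts as Dusp1 and more than Dusp5 in the sgCtrl cells, and far fewer than either in the sgSgf29 cells.

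The 250 bases upstream of the annotated start of these 3 genes are printed because Dusp1 and Dusp5 were both higher while Dusp2 was lower. The sequences are those of RefSeq on GRCm38.p6, read 5′ to 3′ on the strand of the gene. Capitals mark matches to the cyclic AMP response element (TGACGTCA, or its shorter form TGACG), to the EGR motif (GCGTGGGCG or GCGGGGGCG) and to the CArG box of serum response factor, on either strand. The windows are chr17:26508473-26508722 (minus strand) for Dusp1, chr19:53528895-53529144 (plus strand) for Dusp5 and chr2:127335909-127336158 (plus strand) for Dusp2.
Dusp1: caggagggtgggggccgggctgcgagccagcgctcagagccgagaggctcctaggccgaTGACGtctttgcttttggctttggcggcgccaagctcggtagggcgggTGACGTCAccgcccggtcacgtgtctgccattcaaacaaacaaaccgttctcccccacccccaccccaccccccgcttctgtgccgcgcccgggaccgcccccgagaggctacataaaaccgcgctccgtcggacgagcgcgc
Dusp5: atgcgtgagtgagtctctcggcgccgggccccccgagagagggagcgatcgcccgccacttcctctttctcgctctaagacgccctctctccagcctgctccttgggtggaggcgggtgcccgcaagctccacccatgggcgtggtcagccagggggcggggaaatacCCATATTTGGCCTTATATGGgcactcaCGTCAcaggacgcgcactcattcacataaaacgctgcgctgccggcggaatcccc
Dusp2: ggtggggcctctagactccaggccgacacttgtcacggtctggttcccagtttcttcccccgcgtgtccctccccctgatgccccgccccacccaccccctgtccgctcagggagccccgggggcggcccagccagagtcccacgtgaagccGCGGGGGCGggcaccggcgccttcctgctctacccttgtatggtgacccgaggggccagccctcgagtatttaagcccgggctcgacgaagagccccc

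Dusp1 held the full cyclic AMP response element at -143 to -136 from its start, a match found in 1.55% of the 32851 mouse promoter windows of this length. It held the shorter form TGACG 3 times, of which 2 lie within the full element on opposite strands; 17.8% of windows hold the short form at least once. Dusp5 held 2 CArG boxes side by side, at -82 to -73 and -72 to -63, where 1.47% of windows hold any, and 1 short TGACG on its minus strand at -55 to -51. Dusp2 held neither element, and 1 EGR motif at -98 to -90 (3.06% of windows) that overlaps a GC box. Among the other 6 genes with a window in the RefSeq table, Spred2 held 1 short TGACG, and none held a full element, a CArG box or an EGR motif; Dusp4 was not matched.

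Other motifs were searched in the same 9 windows, on both strands. The Dusp7 window, chr9:106368382-106368631, runs past the RefSeq start of the gene at 106368560, so part of it is not upstream. The E-box CACGTG occurred in Dusp1 and Dusp2 (6.02% of all windows) and CCAAT in Dusp6, Dusp7 and Spry1 (33.8%). The GC box GGGCGG occurred in 6 of the 9, beside 32.7% of all windows. The AP-1 motif TGACTCA (4.46%), the ETS motif CCGGAAG (6.91%) and TATAAA (12.4%) matched none of the 9. All 9 windows were above the median G and C content of 52.4% over all windows, with values between 56% in Spred2 and 77.2% in Dusp7; those of Dusp1, Dusp5 and Dusp2 (68.4%, 64% and 70.4%) lay within this range. A match of letters describes the sequence and does not show that a factor binds there.

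Dusp6 and Dusp7 encode cytoplasmic phosphatases that act mainly on ERK. Dusp6 (chr10:99263231-99267489, plus strand), a common readout of ERK activity, measured 26.0, 29.3 and 25.5 CPM in the sgSgf29 libraries and 17.4, 24.9 and 22.0 CPM in the sgCtrl libraries. The groups were apart, but the second sgCtrl library came close to the lowest sgSgf29 library. The log2 fold change was 0.33 (SE 0.11). Dusp7 (chr9:106368560-106375724, plus strand) measured 14.4, 16.8 and 15.6 CPM in the sgSgf29 libraries and 12.5, 12.3 and 13.6 CPM in the sgCtrl libraries. All 3 sgSgf29 values were higher, by a log2 fold change of 0.29 (SE 0.11). These small differences were not past the threshold in every fit, which describes the fits and is no test of these chosen genes. With sgSgf29 library 2 or sgCtrl library 1 left out neither gene passed, and without sgCtrl library 2 or in DESeq2 Dusp7 did not. With each library left out in turn, the log2 fold change of Dusp6 ran from 0.20 to 0.44 and that of Dusp7 from 0.24 to 0.35.

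Spry2 (chr14:105891947-105896819, minus strand), an inhibitor of signalling from growth factor receptors, measured 31.9, 31.7 and 28.4 CPM in the sgSgf29 libraries and 51.1, 59.7 and 60.0 CPM in the sgCtrl libraries. All sgSgf29 libraries were below all sgCtrl libraries, with means of 30.7 ± 1.96 and 56.9 ± 5.07 CPM and a log2 fold change of -0.90 (SE 0.08). Spry1 (chr3:37639947-37644599, plus strand), its close relative, was much scarcer. It measured 3.75, 3.61 and 2.69 CPM in the sgSgf29 libraries and 3.94, 3.15 and 4.20 CPM in the sgCtrl libraries. The groups overlapped, and the log2 fold change was -0.18 (SE 0.21); it was 0.052 with library size scaling, so that its sign is not settled.

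Spred1 (chr2:117121071-117182279, plus strand) measured 11.1, 10.8 and 10.9 CPM in the sgSgf29 libraries and 15.3, 12.9 and 17.8 CPM in the sgCtrl libraries. The sgSgf29 libraries were nearly equal to each other and below each sgCtrl library, at a log2 fold change of -0.49 (SE 0.12). Spred2 (chr11:19924442-20024026, plus strand) measured 12.1, 11.0 and 14.5 CPM in the sgSgf29 libraries and 15.6, 14.5 and 16.9 CPM in the sgCtrl libraries, so that the groups met at 14.5 CPM without crossing. Its log2 fold change was -0.33 (SE 0.12). With library size scaling Spred1 and Spred2 stood at -0.26 and -0.095 on the log2 scale and neither passed the threshold; Spred2 also did not pass with sgSgf29 library 1, sgSgf29 library 2 or sgCtrl library 3 left out, where its log2 fold change ran from -0.44 to -0.23 over all left-out libraries.

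**Figure D2:**
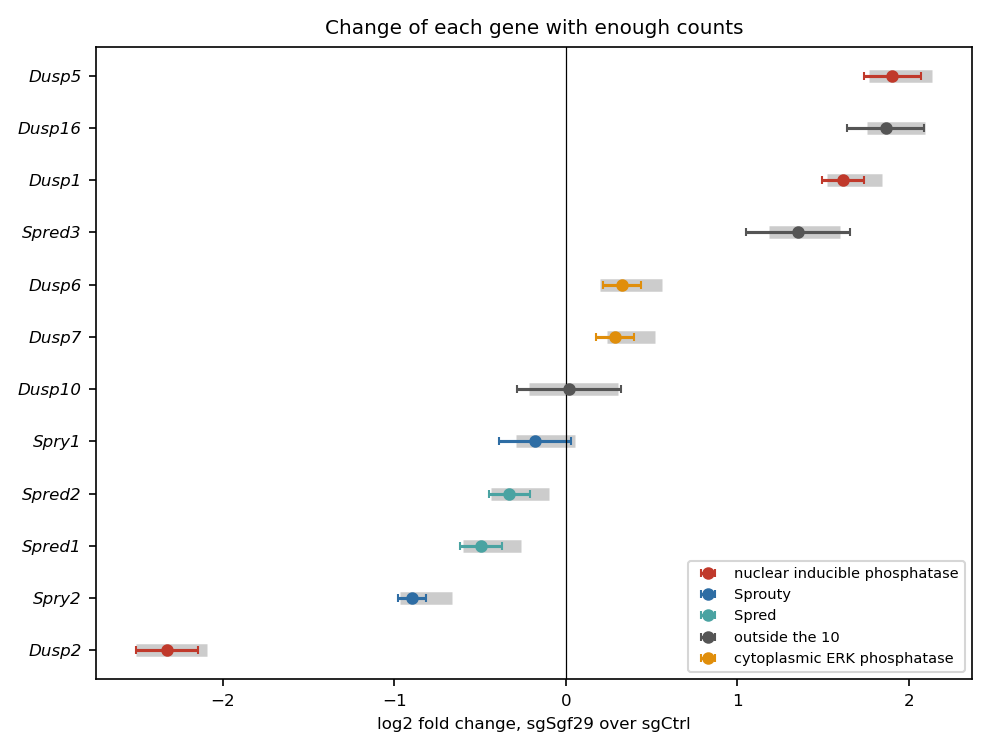
Log2 fold change of sgSgf29 over sgCtrl libraries for the 9 genes that passed the filter and 3 relatives outside the 10 (dark grey points), with points at the edgeR estimate, error bars of 1 SE and grey bars for the range over the alternative scalings, tests, filters and left-out libraries. Dusp5 and Dusp1 lie at 1.91 and 1.62, Dusp2 at -2.32, and the grey bar of Spry1 spans 0.

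Divided by the length of their exons, levels can be compared between genes. The length used for Dusp1, 3311 bases, includes the longer GENCODE model and exceeds the RefSeq span of the gene. Its level per kb may therefore be too low, and its rank and share below are not settled. By these lengths Spry2 ranked highest of the 10 in both groups. It stood at 14.7 ± 0.940 CPM per kb in sgSgf29 and 27.3 ± 2.43 CPM per kb in sgCtrl cells. In the sgSgf29 cells Dusp1 (9.21 ± 1.32 CPM per kb), Dusp6 (8.60 ± 0.649) and Dusp5 (6.39 ± 1.27) came next, followed by Dusp7, Spred2, Spred1, Spry1, Dusp2 and Dusp4. The libraries overlapped between Dusp1 and Dusp6, between Dusp5 and Dusp7 and between Spry1 and Dusp2, so the order of these neighbours is not settled. In the sgCtrl cells the order was Spry2, Dusp6 (6.85 ± 1.21 CPM per kb), Dusp2 (5.37 ± 0.482), Dusp7, Spred2, Dusp1 (3.00 ± 0.463), Spred1, Dusp5 (1.69 ± 0.312), Spry1 and Dusp4, with overlap between Dusp6 and Dusp2, Dusp7 and Spred2, Spred2 and Dusp1, and Dusp5 and Spry1. Dusp2 was thus the ninth gene in the sgSgf29 order and the third in the sgCtrl order, and Dusp1 the second and the sixth.

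The sum over the 10 genes overlapped between the groups, at 138.0 to 155.4 CPM in sgSgf29 and 142.2 to 160.0 CPM in sgCtrl libraries, while its make-up differed. Per exon length, the summed level was 50.2 ± 3.72 CPM per kb in sgSgf29 and 55.1 ± 3.52 CPM per kb in sgCtrl cells. Of that sum the 4 nuclear phosphatases held 33.3% ± 3.30 in sgSgf29 and 18.6% ± 1.5 in sgCtrl cells, and the 2 cytoplasmic phosphatases 26.5% ± 2.26 and 19.3% ± 1.24. The Sprouty genes held 31.6% ± 0.184 in sgSgf29 and 51.8% ± 1.15 in sgCtrl cells, and the Spred genes 8.69% ± 1.43 and 10.3% ± 1.16. By these exon lengths the phosphatases together held more than the Sprouty and Spred genes in the sgSgf29 cells and less in the sgCtrl cells. Inside each library, the ratio of Dusp6 to Spry2 counts was 0.816, 0.923 and 0.898 in sgSgf29 and 0.341, 0.417 and 0.367 in sgCtrl libraries.

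**Figure D3:**
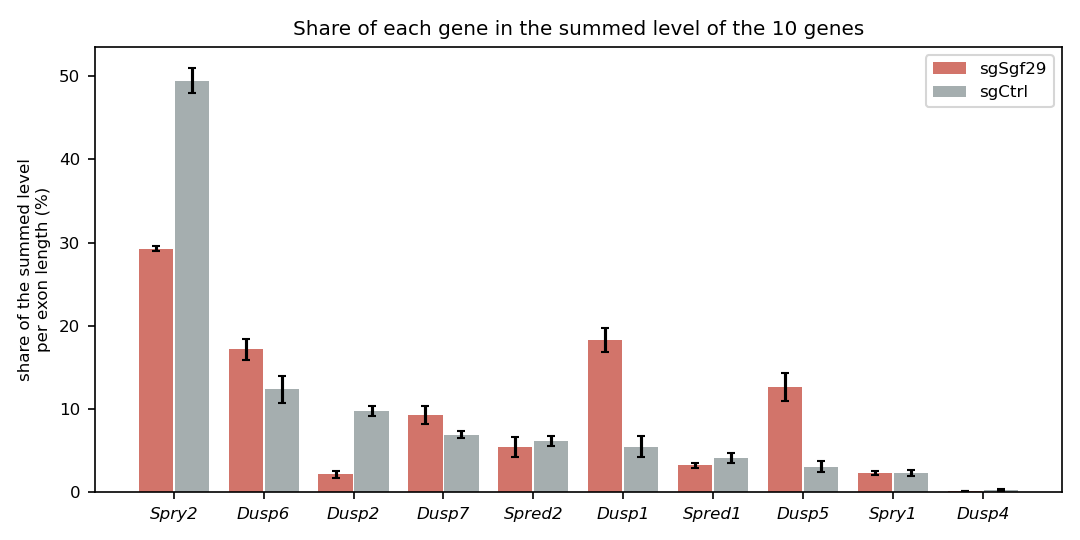
Share of each gene in the summed CPM per kb of exon of the 10 genes, in percent, as group means with error bars of 1 SD (n = 3 per group); genes are ordered by their share in sgCtrl cells. Spry2 held 29.3% in sgSgf29 and 49.4% in sgCtrl cells, Dusp1 18.3% and 5.50%, Dusp5 12.7% and 3.08%, and Dusp2 2.15% and 9.73%. The exon length of Dusp1 includes a longer GENCODE model, so its share may be too low.

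Likeness of pattern was measured over the 6 libraries as the root mean square difference of log2 levels centred on each gene's mean, which here follows mostly the difference between the groups. Dusp1 and Dusp5 were each other's nearest gene (0.17), as were Dusp6 and Dusp7 (0.161) and Spred1 and Spred2 (0.144). Spry1 and Spry2 were both nearest to Spred1 (0.203 and 0.266). Dusp2 had no close neighbour among the 10, its nearest being Spry2 at 0.62. Among all genes tested, those nearest to Dusp2 were Otogl (otogelin-like, 0.138), Soat2 (a cholesterol esterifying enzyme, 0.14) and Muc13 (a membrane mucin, 0.175), with log2 fold changes of -2.41, -2.39 and -1.92.

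The families have 7 further genes outside the 10. Their list, like those below, was drawn up with earlier results of these data known. Dusp16, a phosphatase of JNK and p38, rose in the sgSgf29 cells, with 5.46 ± 0.844 CPM against 1.5 ± 0.224 CPM in sgCtrl cells (log2 fold change 1.87, SE 0.23, adjusted p = 3.1e-07, edgeR's quasi-likelihood test). Spred3 rose too, with 2.91 ± 0.870 CPM in sgSgf29 and 1.15 ± 0.249 CPM in sgCtrl cells (1.35, SE 0.30, adjusted p = 0.000462, the same test), opposite in direction to Spred1 and Spred2; it overlaps Ggn on the opposite strand, which had 0.884 and 0.510 CPM. Dusp10, another JNK and p38 phosphatase, did not pass, at 1.90 ± 0.538 and 1.91 ± 0.737 CPM (0.02, SE 0.30, adjusted p = 0.96). Dusp8 and Dusp9 were below the filter. Spry3 and Spry4 had 0 counts in all 6 libraries, which allows a level of up to 0.135 to 0.201 CPM by library (3 counts; counting error only).

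The rest of the pathway was described by 9 further lists, which with the 7 relatives hold 143 genes; of the 117 tested, 58 were higher, 25 lower and 34 did not pass. These counts, and those of each list below, stand beside 35.4% higher and 34.4% lower over all genes tested, so that most genes of any kind passed in 1 direction or the other. Of 23 tested genes of the cascade from receptor adaptors through RAS to ERK, 15 rose and 2 fell, with a median log2 fold change of 0.49 beside 0.01 for all genes tested. Rras, a RAS-related GTPase, had 27.9 ± 1.33 CPM in sgSgf29 and 6.20 ± 0.563 CPM in sgCtrl cells (log2 fold change 2.18, SE 0.11, adjusted p = 9.28e-13, edgeR's quasi-likelihood test). The ERK gene Mapk3 had 218.2 ± 6.32 CPM in sgSgf29 and 106.5 ± 4.31 CPM in sgCtrl cells (1.03, SE 0.06). The scaffold gene Ksr1 rose by 1.40 and the MEK gene Map2k1 by 0.86 on the log2 scale. In the JNK and p38 cascades 13 of 20 tested genes rose and 1 fell (median 0.28), with Map3k3, a kinase at the top of these cascades, at 1.36 and Map2k4, which activates JNK, at 0.95.

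Among 16 tested RAS GTPase activators and adaptor inhibitors, 7 rose and 5 fell (median 0.17), shares near those of all genes tested. The ubiquitin ligase gene Cbl, which removes active receptors, rose by 0.80 on the log2 scale, the RAS inactivator Rasa4 fell by 1.39 and the RAF inhibitor Pebp1 fell by 0.65. Of 7 tested phosphatases that act on MAP kinases from outside the DUSP family, 2 rose and 2 fell, again near the shares of all genes: Ptprr, a tyrosine phosphatase, had a log2 fold change of 1.39 and Ppm1b of 0.21, whereas Ppp2cb, a catalytic subunit of protein phosphatase 2A, fell by 0.43 and Ptpn7 by 0.37. The Ptpn7 call was lost with library size scaling (adjusted p = 0.0669), and that of Ppm1b, whose groups overlapped, when sgSgf29 library 2 or 3 or sgCtrl library 1 or 2 was left out (adjusted p up to 0.0946, edgeR's quasi-likelihood test). Of 8 tested atypical DUSP genes, which lack the MAP kinase binding domain, 6 did not pass; Dusp22 rose to 1.34 ± 0.505 CPM in sgSgf29 cells, against 0.123 ± 0.135 CPM in sgCtrl cells, and Dusp12 fell by 0.65 on the log2 scale.

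Among 16 tested kinases and transcription factors that ERK or p38 act on, 9 rose and 4 fell (median 0.29). Among those that rose were the factors Ets1 at 0.98 and Elk3 at 0.93 and the kinase gene Mknk1 at 0.81. The 4 that fell were Rps6ka2 (-1.42), Elk4 (-0.41), the serum response factor gene Srf (-0.40) and Rps6ka5 (-0.29). Of 7 tested genes of ERK transcriptional output outside these families, 2 rose and 3 fell (median -0.08). Ier3 had 243.7 ± 37.2 CPM in sgSgf29 and 141.6 ± 11.8 CPM in sgCtrl cells (log2 fold change 0.78), whereas the AP-1 gene Fosl1 had 22.0 ± 2.00 and 52.4 ± 3.54 CPM (-1.25); Phlda1 rose by 1.63 and the ETS factor Etv4 fell by 1.29 on the log2 scale. Of 11 tested immediate early genes 7 rose and 2 fell (median 0.70): Zfp36, which speeds the decay of cytokine mRNAs, rose by 1.09 and Ier5 by 0.98, and Jun fell by 1.27 and Ier2 by 0.99. Of 6 tested heat shock genes, 5 fell and 1, Dnajb1, did not pass (median -0.91), with Hspe1 at -1.53 and Hspa8 at -1.03. Hspa1a, Hspa1b and Hspb1 of the same list were below the filter, and any link of these genes to Dusp1 was not tested.

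**Figure D4:**
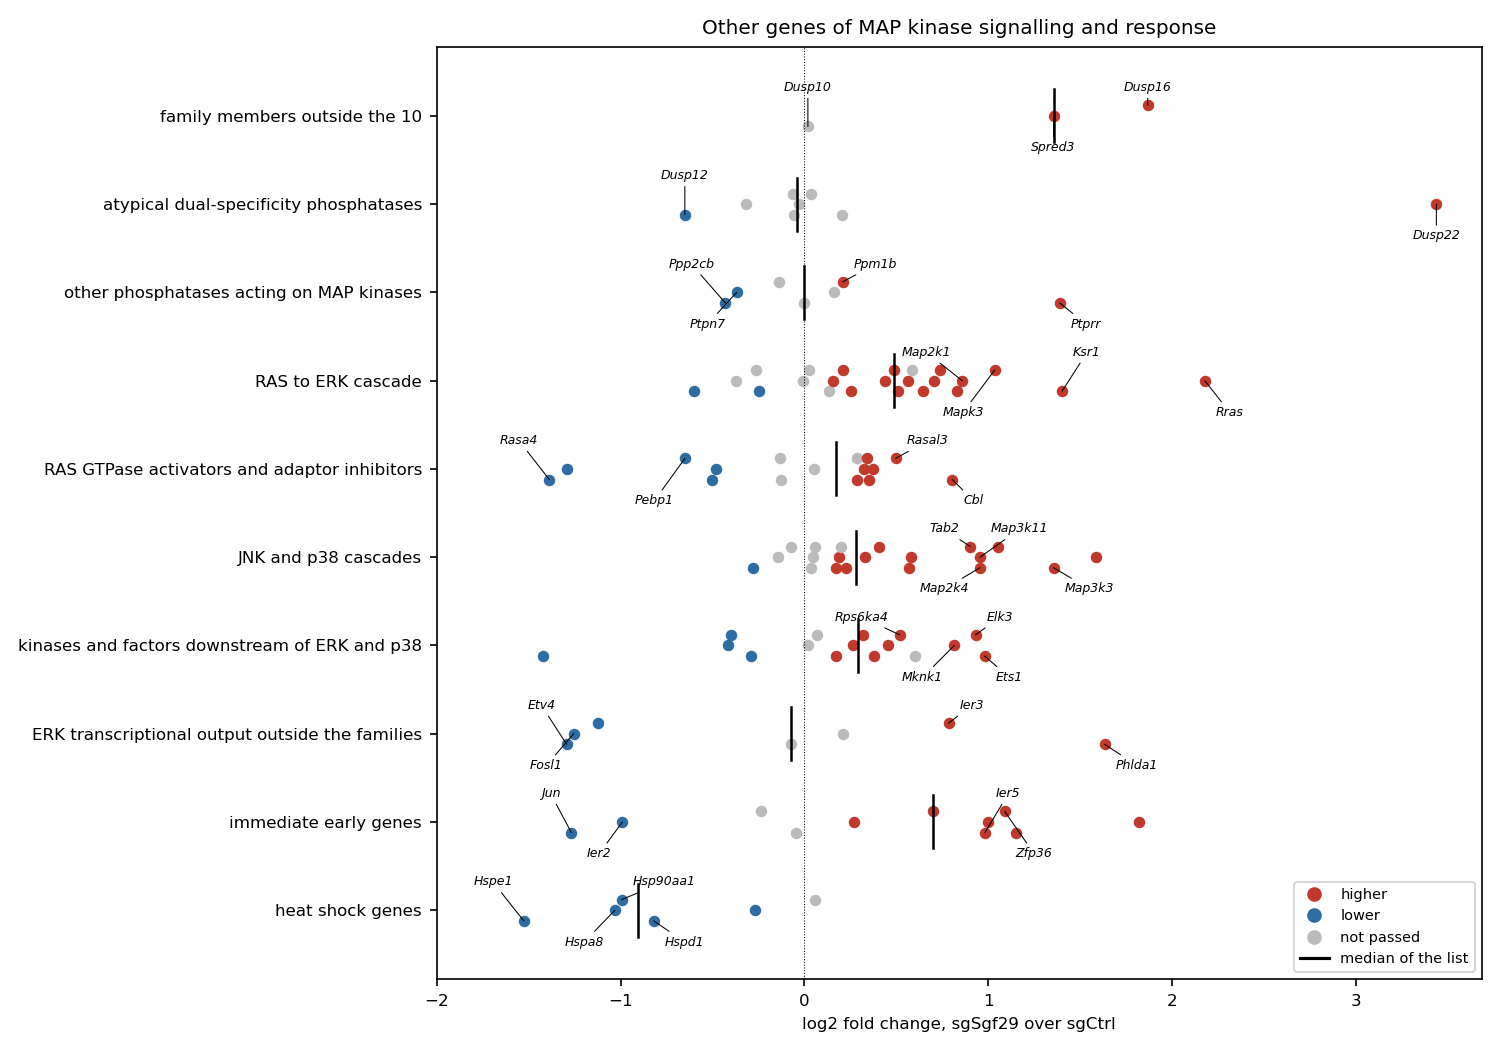
Log2 fold change of sgSgf29 over sgCtrl for the 117 tested genes of the lists around the 10 genes, 1 row per list and 1 point per gene, coloured by whether it was higher, lower or not past an adjusted p of 0.05; black bars mark list medians and thin lines tie the named genes, up to 4 per list, to their points. The RAS to ERK row lies mostly to the right (15 higher, 2 lower) and the heat shock row mostly to the left (5 of 6 lower).

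Markers of mature cells that moved with the groups included Cd14 (57.5 ± 7.72 CPM in sgSgf29 and 15.4 ± 1.06 CPM in sgCtrl cells), Ccr2 (69.1 ± 3.84 and 7.62 ± 0.858 CPM) and S100a9 (13074 ± 427.3 and 3447 ± 224.3 CPM). Ltf, a granule gene of neutrophil precursors, was lower (36.8 ± 1.11 and 66.6 ± 3.16 CPM), and Camp was slightly lower (896 ± 16.4 and 1003 ± 41.9 CPM). Ngp (2454 ± 48.2 and 1181 ± 82.5 CPM), Cd177 (424.6 ± 15.4 and 137.9 ± 2.99 CPM) and Mmp8 (36.6 ± 7.08 and 5.01 ± 1.95 CPM) of the same list were higher. In the list of mast cells and basophils, Cpa3 and Fcer1a had 0 counts in all 6 libraries, but Mcpt8, a basophil protease, fell to 2.80 ± 0.511 CPM in sgSgf29 cells, against 9.61 ± 0.333 CPM in sgCtrl cells (adjusted p = 1.06e-08, edgeR's quasi-likelihood test). In the megakaryocyte list, Pf4 had 0 counts, the integrin gene Itga2b fell to 1.05 ± 0.251 CPM in sgSgf29 cells, against 2.34 ± 0.339 CPM in sgCtrl cells (adjusted p = 0.00172, the same test), and Gp9 did not pass, at 5.44 ± 1.11 and 6.75 ± 0.592 CPM. In the erythroid list, Hbb-bs and Hba-a1 had 0 counts and Klf1, the only gene tested, did not pass, at 1.26 ± 0.0881 and 1.58 ± 0.348 CPM. No marker of lymphocytes (B, T and NK cells) or fibroblasts passed the filter, and Ms4a1, Cd3e and Col3a1 had 0 counts. Ribosomal protein genes took 12.7% ± 0.894 of gene counts in sgSgf29 and 19.2% ± 0.369 in sgCtrl libraries, and mitochondrial genes 2.17% to 2.84% and 2.26% to 3.71%. With TMM scaling set without the ribosomal protein genes, 4 of the 9 fitted genes were again higher and 4 lower. Dusp1 then stood at 1.61 and Dusp2 at -2.33 on the log2 scale. Beyond this choice of scaling, the part of ribosomal and mitochondrial genes in the changes of the 10 genes was not tested.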

How the data were processed

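The authors deposited raw counts of reads per gene for 6 RNA libraries in 1 table; 8 chromatin immunoprecipitation samples were not analysed here. Reads were aligned with STAR and counted with featureCounts according to the study's methods; STAR 2.6.0a and GRCm38 stand in the submitters' processing notes. The table holds 5 bookkeeping entries of the kind htseq-count writes (29.1% ± 0.891 of counts in sgSgf29 and 28.8% ± 2.78 in sgCtrl libraries, SD, n = 3), left out throughout. Which annotation and strand setting served for counting is not given in the sources used here. The kit was directional per the labels. With no strand used, reads on the shared bases of overlapping genes on opposite strands cannot be assigned to 1 of the genes. Besides Dusp1 and Spred3, the fitted genes Dusp5, Spry1, Dusp10 and Dusp16 overlap an annotated gene on the opposite strand in GENCODE.

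The low-count filter filterByExpr (minimum 10 at the median library size, 15 in total) kept 11169 of 22155 genes. After TMM scaling, edgeR 4.0.16 (R 4.3.3) gave quasi-likelihood tests, whose p-values were adjusted over all genes tested by the Benjamini-Hochberg method at a threshold of 0.05 (biological coefficient of variation 6.61%). SD values are of CPM after TMM. A list is described by its counts of calls and its median. Alternatives were other scalings, DESeq2 1.42.0, limma-voom (limma 3.58.1), other filters, leaving out each library, a threshold of 0.01 and a replicate block. In a simulation of this comparison with 10445 genes, the test found all 100 genes with a 2-fold change and 94 of 100 with a 1.5-fold change. Of its 203 calls 9 were false. Far fewer genes were changed there than were called in the real libraries. The simulation also left out genes with few counts, gave every gene the same spread and held no shift in composition. Its rates need not hold for the 10 genes.

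The 10 genes and the lists were chosen with earlier results of these data known. Named are all 10 genes, their family relatives, Sgf29 and up to 4 called genes per further list with the smallest adjusted p. The 4 genes that fell among the kinases and factors that ERK or p38 act on are named too. Beside the marker lists, the genes named are examples chosen after their values were seen. Likeness used log2(CPM + 0.5). Coordinates and promoter sequences are from RefSeq on GRCm38.p6 (9 of the 10 genes matched), exon lengths and overlaps from GENCODE on GRCm38, which need not be the annotation used for counting.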

Additional observations from a re-analysis of the deposited data

How the results depend on the processing

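With library size scaling, 2385 genes were lower and 5575 higher, against 3842 and 3957 with TMM; 30% of calls were lower, against 49.3% with TMM. The median log2 fold change of the 9 tested genes was then 0.052, against -0.18; with 1 library left out in turn it ran from -0.29 to -0.032, the values without sgCtrl library 2 and without sgSgf29 library 3. With a library left out, 3430 to 3833 genes were lower and 3662 to 3943 higher, and of the genes in the pathway lists 20 to 25 were lower and 51 to 59 higher. Of the 9 tested genes, all but Spry1 kept their direction under all alternatives run (Dusp1 1.53 to 1.85, Dusp5 1.77 to 2.14, Dusp2 -2.50 to -2.09 on the log2 scale). Among the smaller changes, Dusp6 ran from 0.20 to 0.56, Dusp7 from 0.24 to 0.52, Spred1 from -0.60 to -0.26 and Spred2 from -0.44 to -0.095. Ptpn7 did not pass with library size scaling (log2 fold change -0.14, adjusted p = 0.0669). Ppm1b did not pass with sgSgf29 library 2 or 3 or sgCtrl library 1 or 2 left out (0.17 to 0.20, adjusted p up to 0.0946 in edgeR's test).

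Same-numbered libraries of the groups correlated in their deviations from the group means by 0.026, 0.084 and 0.125 over 11169 genes. Those with different numbers ran from -0.117 to 0.042. The sgSgf29 libraries 2 and 3 correlated best with the sgCtrl library of their own number, and sgSgf29 library 1 with sgCtrl library 2. A weak pairing by number is therefore not settled, and the main fit used none. With a replicate block 3937 genes were lower and 4059 higher, and in the pathway lists 26 and 60. Dusp4, at 4 to 14 counts per library, is too shallow for its difference to be read.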
